A study of Mus musculus with 16 samples.

Results

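The contrast described here asks which genes changed differently in the ectoderm and in the mesoderm of the mouse distal forelimb bud between E9.5 and E10.5, the first of the 3 daily steps that the series samples. For each gene, the log2 change of the mesoderm was subtracted from the log2 change of the ectoderm, so that a positive difference means that the ectoderm gained more or lost less than the mesoderm. It rests on 8 of the 16 RNA libraries: ectoderm and mesoderm at E9.5 and at E10.5, with 2 replicates in each of these 4 groups. All embryos were B6 mice with no other genotype or treatment named. A strip of the forelimb tip, of the same stated width at each stage, was kept on ice in trypsin, and the ectoderm, the thin epithelium around the bud, was then peeled from the mesoderm, which holds mesenchyme, vessels and blood. Both layers of 1 stage and replicate number came from 1 batch of embryos, and replicates 1 and 2 differed in the RNA kit used. The bud grows during this day, so that a change with time and a change in the region or cell mix held by the strip cannot be told apart. In bulk tissue, fewer cells of a type and less RNA per cell cannot be told apart either.

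As background, the early limb bud is patterned along its length by opposing signals. Retinoic acid from the trunk favours proximal fates, marked by the homeodomain factors Meis1 and Meis2, while FGFs from the apical ectodermal ridge, the thickened epithelium at the tip, keep the distal mesenchyme growing and free of these factors. In the mesoderm of the growing tip, the early genes at the 3' ends of the Hox clusters give way to 5' Hoxa and Hoxd genes, and the overlying ectoderm begins the program that leads to epidermis and its appendages.

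Of 15501 genes tested, 1126 (7.26%) were called different in their first-day change with edgeR's quasi-likelihood test at a Benjamini-Hochberg adjusted p under 0.05. The difference was positive for 607 genes (3.92%) and negative for 519 (3.35%). These shares are the background for the counts of called list members given below. The median difference was 0.02 over all tested genes, and the median size was 1.46 among the called genes. All 1126 had the same sign within replicate 1 and within replicate 2. These are the libraries that gave the calls, so the shared sign is no independent replication. Total counts of the 8 libraries ran from 10005867 to 30438214. The number of calls was lower whichever of the 8 libraries was left out. Each such fit had 1 library in a group, so it cannot separate the effect of a given library from that of a smaller fit.

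The mesoderm moved more often than the ectoderm among these genes. In 589 of the 1126, the change within the mesoderm passed the same test and that within the ectoderm did not: 252 of them fell and 337 rose in the mesoderm. The reverse pattern, with only the ectoderm's change passing, held for 266 genes, of which 195 rose and 71 fell in the ectoderm. Opposite changes that both passed were found in 136 genes, 98 that rose in ectoderm and fell in mesoderm and 38 that did the reverse. In 108 genes both layers changed in the same direction by unequal amounts, and in 27 neither change passed alone. Over all tested genes, 27.7% changed in the mesoderm during this day (13.7% rose and 14.0% fell) and 15.3% in the ectoderm (9.34% rose and 5.95% fell). DESeq2 called 9.83% and limma on FPKM 9.23% of the tested genes for the difference between the layers.

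**Figure D1:**
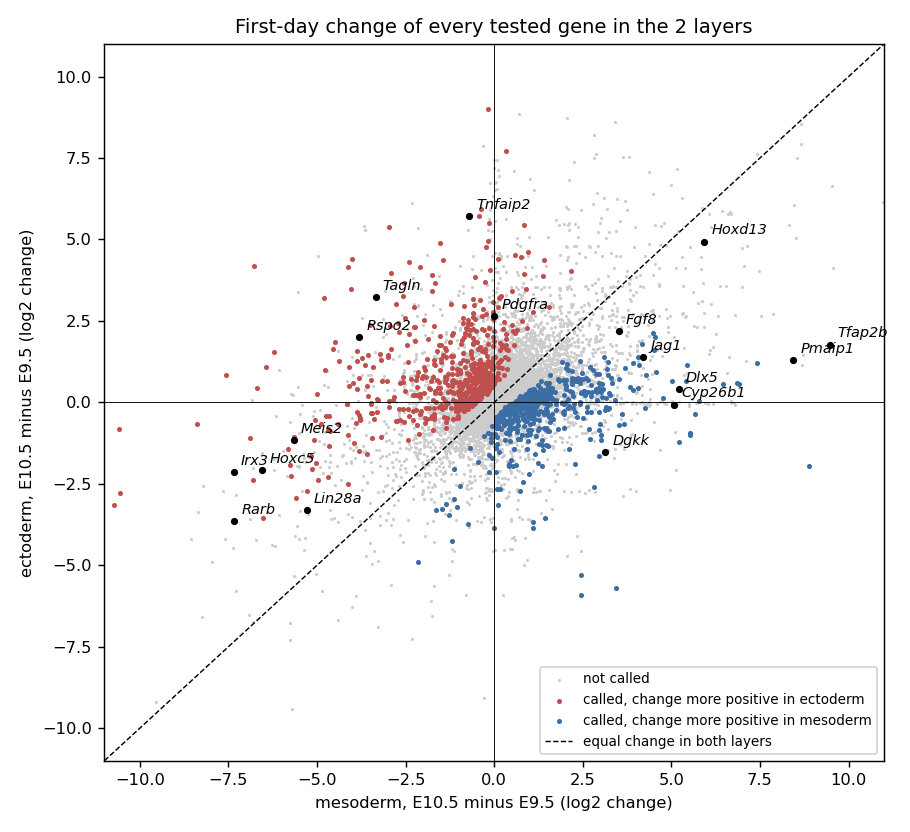
Each point is 1 tested gene, with its log2 change from E9.5 to E10.5 in mesoderm on the horizontal axis and in ectoderm on the vertical axis. Red and blue points are the 607 and 519 genes called with a positive and a negative difference, grey points were not called, the dashed line marks equal change, and 1 gene lies outside the axes. Meis2 and Irx3 lie far to the left and Cyp26b1 and Dlx5 far to the right, near no change in ectoderm for the latter pair.

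Several proximal limb factors fell further in mesoderm than in ectoderm. The list of 13 TALE homeodomain factors (Meis, Pbx, Pknox and Tgif families) and Iroquois factors had 7 called members, all positive, with a median difference of 1.27 against 0.02 for all genes. Meis1, Meis2, Meis3, Pbx3, Irx3 and Irx5 were among them. All 7 fell in the mesoderm, and the list kept 7 calls when any 1 of the 8 libraries was left out.

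Meis2 (chr2:115863064-116065839, minus strand, mm10) is a TALE homeodomain factor of the proximal limb that binds DNA with Pbx partners. In ectoderm it was at 233 and 229.7 CPM (counts scaled to a common effective library size, here for replicate 1 and replicate 2) at E9.5 and at 114 and 93.8 at E10.5. In mesoderm it was at 239 and 279 CPM at E9.5 and at 4.35 and 6.14 at E10.5. The layer difference at E9.5 did not pass (adjusted p = 0.379), and at E10.5 both ectoderm libraries stood far above both mesoderm libraries. Meis2 fell by 1.15 on the log2 scale in ectoderm and fell by 5.66 in mesoderm, a difference of 4.51 (SE 0.21, adjusted p = 6.29e-07). Per transcript length, its mean level dropped from 61.1 to 1.34 FPKM in mesoderm, against 56.3 to 25.2 FPKM in ectoderm.

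Meis1 (chr11:18879817-19018985, minus strand), the other Meis factor used to mark the proximal limb, also fell further in mesoderm. Unlike Meis2, it had both ectoderm libraries above both mesoderm libraries at E9.5 already. Its ectoderm libraries read 131 and 178 CPM at E9.5 and 70.5 and 96.4 at E10.5, and its mesoderm libraries 71.6 and 98.0, then 2.93 and 3.75. The difference was 3.76 (SE 0.31, adjusted p = 3.05e-05). Meis3, the least abundant of the family at 7.13 FPKM in ectoderm and 5.88 in mesoderm at E9.5, fell by 3.79 on the log2 scale in mesoderm, and its change of -0.54 in ectoderm did not pass (adjusted p = 0.0772). The difference for Meis3 was 3.25 (SE 0.30).

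Pbx3, a TALE factor of the family that partners with Meis proteins, had 58.2 and 68.9 CPM in mesoderm at E9.5 and 26.1 and 21.8 at E10.5. In ectoderm it read 43.2 and 45.1, then 37.2 and 43.9. The ectoderm was below the mesoderm at E9.5 and above it at E10.5, with no overlap of libraries at either stage, and the difference was 1.27 (SE 0.23, adjusted p = 0.0053).

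Irx3 (chr8:91798525-91802067, minus strand), an Iroquois homeodomain factor of the early proximal and anterior bud, was at 92.9 and 71.8 CPM in mesoderm at E9.5 and at 0.72 and 0.20 at E10.5. In ectoderm it fell as well, from 25.95 and 21.2 to 7.45 and 3.74 CPM. The higher layer was the mesoderm at E9.5 and the ectoderm at E10.5, and the difference was 5.21 (SE 0.39, adjusted p = 1.6e-05). Its neighbour in the same cluster, Irx5, had a difference of 5.79 (SE 0.70, adjusted p = 0.000442). Irx5 was at 21.1 and 22.7 CPM in mesoderm at E9.5 and at 0.31 and 0 at E10.5, so the size of its difference rested on few counts. Without mesoderm E10.5 replicate 1 it came to 10.24.

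**Figure D2:**
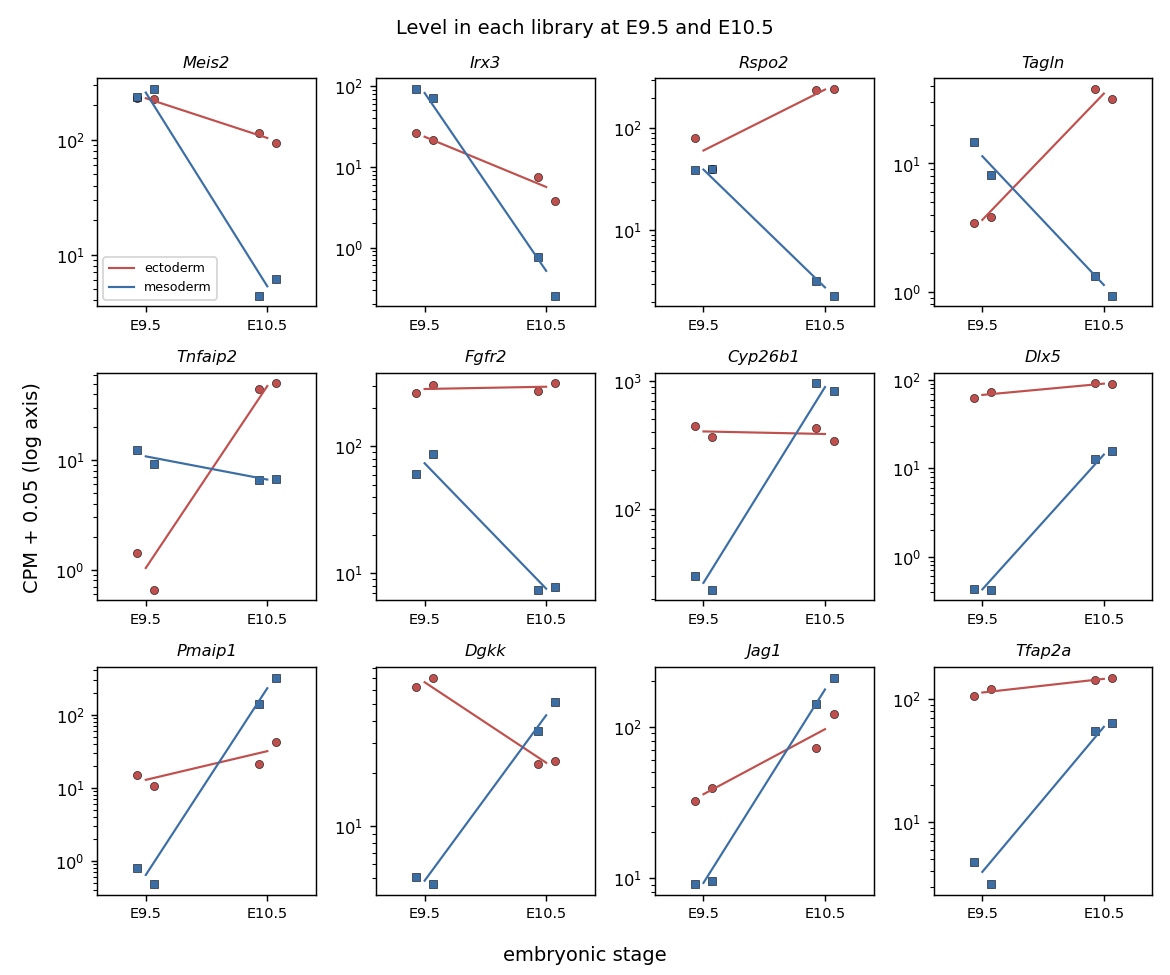
Level of 12 genes in each of the 8 libraries at E9.5 and E10.5, as CPM + 0.05 on a log axis, with ectoderm in red circles and mesoderm in blue squares; lines join the group means. Meis2, Irx3, Rspo2, Tagln and Fgfr2 drop in mesoderm, while Cyp26b1, Dlx5, Pmaip1, Dgkk, Jag1 and Tfap2a climb there.

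The 4 Hox clusters differed in how many of their genes were called. In HoxB, 7 of 9 tested genes were called, all with a positive difference, and the cluster's median was 2.97. In HoxC, 5 of 9 were called, all positive, with a median of 3.27 (3.68 when genes without counts in a group are set to the floor of 3 counts). In HoxA 1 gene of 11 was called (9.09%, against 7.26% of all tested genes), and the median was 0.07. In HoxD none of 9 was called with edgeR's quasi-likelihood test, 0 passed an unadjusted p under 0.05, 0 were called with DESeq2 and 2 with limma on FPKM, 1 in each direction. HoxB dropped to 4 calls without ectoderm E10.5 replicate 2, and HoxC to 3 calls without mesoderm E9.5 replicate 1 or mesoderm E10.5 replicate 1. Genes within a cluster overlap and lie close together, and the sources used here do not state whether counting used strand, so neighbouring Hox genes may share reads.

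All 9 tested Hoxb genes fell in both layers during this day, and the called ones fell further in mesoderm. Hoxb3 had 40.4 and 65.7 CPM in mesoderm at E9.5 and 0.97 and 0.89 at E10.5. In ectoderm it went from 14.9 and 16.2 CPM to 2.75 and 5.61. The mesoderm libraries were the higher pair at E9.5 and the lower pair at E10.5, and the difference was 3.84 (SE 0.49, adjusted p = 0.00064). Hoxb2 and Hoxb4, its neighbours, had differences of 3.12 and 2.58. Hoxb1, the most 3' gene of the cluster, was at 10.8 and 14.3 CPM in mesoderm at E9.5 and had 0 counts in both mesoderm libraries at E10.5, where the ectoderm still had 0.18 and 0.67 CPM. Its call was lost without ectoderm E10.5 replicate 2 (adjusted p = 0.0762), as was that of Hoxb5 (adjusted p = 0.0613), while Hoxb9 was lost without ectoderm E10.5 replicate 1 (adjusted p = 0.0545). Hoxb8 kept its call only without mesoderm E9.5 replicate 1, ectoderm E9.5 replicate 1 or ectoderm E10.5 replicate 1, and its adjusted p reached 0.208 in the 5 other omissions, where its difference of 2.65 was 1.75 without ectoderm E10.5 replicate 2. Hoxb6 (difference 2.51, adjusted p = 0.0558) and Hoxb7 (2.46, adjusted p = 0.054) did not pass.

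In the HoxC cluster, the 3' genes fell steeply in mesoderm and less in ectoderm. Hoxc5 had 131 and 128 CPM in ectoderm and 65.8 and 62.6 in mesoderm at E9.5, and 31.1 and 31.0 in ectoderm and 0.62 and 0.75 in mesoderm at E10.5. The ectoderm was higher at both stages, and the gap widened, with a difference of 4.48 (SE 0.63, adjusted p = 0.0012). Hoxc4 had a difference of 4.60 (SE 0.49) and Hoxc6, whose change in ectoderm did not pass, one of 3.27 (SE 0.50). These 3 calls held when any 1 of the 8 libraries was left out.

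Hoxc9 was the only called Hox gene that rose in 1 layer and fell in the other. It went from 16.04 and 13.3 to 34.4 and 24.8 CPM in ectoderm and from 1.39 and 1.05 to 0.35 and 0.27 CPM in mesoderm. The ectoderm libraries were above the mesoderm libraries at both stages. The difference was 2.94 (SE 0.58, adjusted p = 0.00994), and it missed the threshold without mesoderm E9.5 replicate 1 (adjusted p = 0.0661) or mesoderm E10.5 replicate 1 (adjusted p = 0.0752). Hoxc8, at 79.5 and 70.3 CPM and then 86.6 and 71.5 in ectoderm, fell only in mesoderm by the test. Its call held only without mesoderm E9.5 replicate 2, ectoderm E9.5 replicate 1 or ectoderm E10.5 replicate 2, and its adjusted p reached 0.0852 in the 5 other omissions.

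The 5' Hoxc genes could not be compared as changes, because the mesoderm held almost none of their RNA. Hoxc13, a regulator of hair and nail keratins, had 0.95 and 1.87 CPM in ectoderm at E9.5 and 35.4 and 33.2 at E10.5, with at most 0.38 CPM in any of the 4 mesoderm libraries. Hoxc10 went from 0.53 and 0.42 to 18.7 and 17.7 CPM in ectoderm, with 0 counts in mesoderm at E9.5 and 0.28 and 0.20 CPM at E10.5. Hoxc11 and Hoxc12 had no counts in ectoderm at E9.5 and reached 2.66 and 2.87 CPM and 2.40 and 3.47 CPM at E10.5. All 4 rose in ectoderm by the test (adjusted p = 0.000368 for Hoxc11, 0.00031 for Hoxc12), and their difference from mesoderm was not called with edgeR, whereas limma on FPKM called 8 of the 9 Hoxc genes against 5 here.

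The late distal genes Hoxa10, Hoxa11, Hoxa13, Hoxd11, Hoxd12 and Hoxd13 rose in both layers and were not called. Hoxd13, which patterns digits, went from 10.1 and 8.36 to 401 and 745 CPM in mesoderm and from 1.05 and 0.90 to 22.1 and 36.6 CPM in ectoderm. The difference of -0.998 had an SE of 1.57 and did not pass (adjusted p = 0.786). Hoxd12 likewise reached 317 and 340 CPM in mesoderm and 21.2 and 19.8 in ectoderm. Markers of limb mesenchyme in the same 2 ectoderm libraries had a median of 13.4% and 13.3% of their level in the mesoderm of the same batch. The part of mesenchymal RNA in these ectoderm values was not tested.

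**Figure D3:**
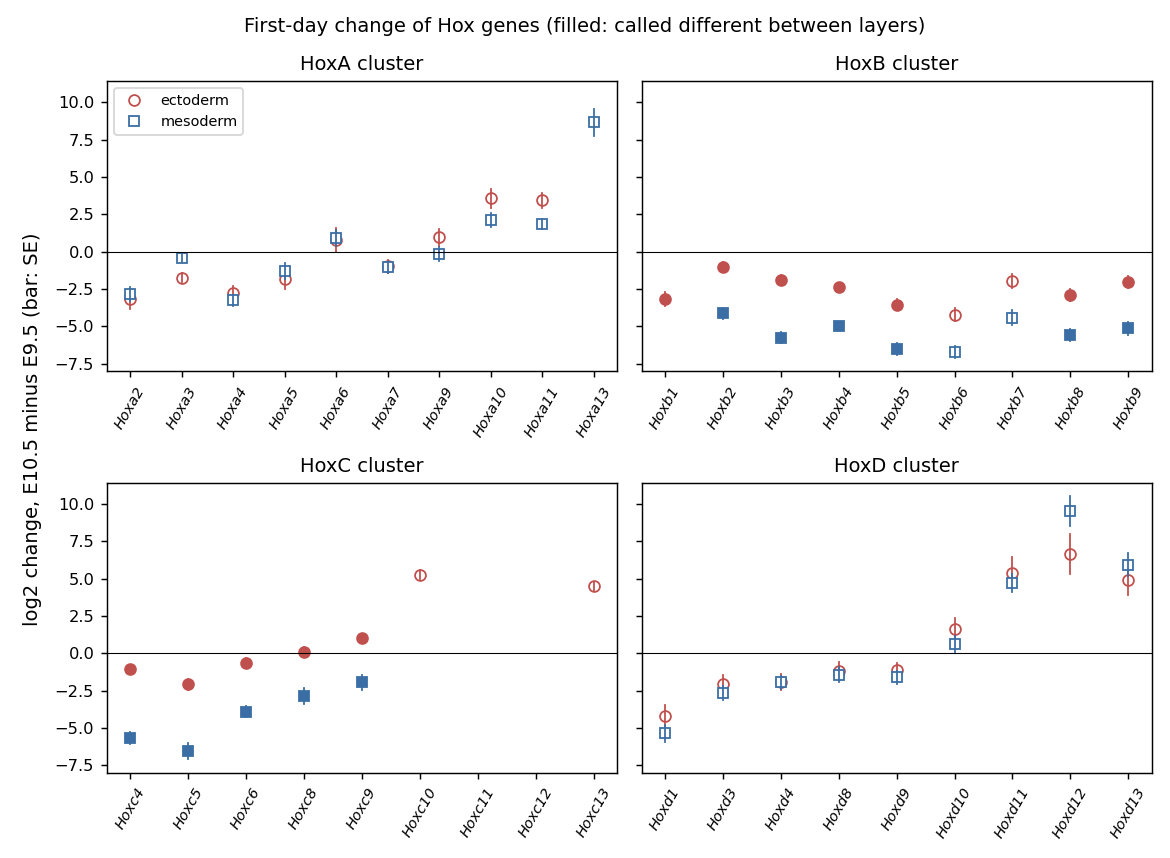
Log2 change from E9.5 to E10.5 of Hox genes, by cluster, in ectoderm (red circles) and mesoderm (blue squares), with bars of 1 SE. Filled points mark genes called different between the layers, and a layer's change is not drawn where a group held 3 counts or fewer. In HoxB and the 3' part of HoxC the mesoderm points lie below the ectoderm points, while in HoxA and HoxD the points of the layers mostly lie close together.

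Genes of retinoic acid metabolism and response diverged in both directions. Of 17 genes in this list 4 had a positive and 2 a negative called difference (median 0.03, or 0.43 with genes without counts at their floor). Retinoic acid acts through nuclear receptors that bind paired hexamers, and Rarb and Cyp26a1 are well-known direct targets. Their promoters are shown because both genes were called and both hold a direct repeat of the receptor's hexamer with 5 bases between the copies. The motif searched was GNTCA followed, after 6 bases of any kind, by GNTCA again, or for the other strand TGANC followed in the same way by TGANC, in the 250 bases before each RefSeq start (GRCm38.p6). Of 13 list genes with a RefSeq promoter, Rarb and Cyp26a1 held it, and 244 of all 27025 promoters (0.903%) did. Capitals mark the match, which begins 52 bases before the start in Rarb (chr14:16575477-16575726, minus strand) and 32 bases before it in Cyp26a1 (chr19:37697558-37697807, plus strand). A match describes these letters and does not show that a receptor bound there.
Rarb: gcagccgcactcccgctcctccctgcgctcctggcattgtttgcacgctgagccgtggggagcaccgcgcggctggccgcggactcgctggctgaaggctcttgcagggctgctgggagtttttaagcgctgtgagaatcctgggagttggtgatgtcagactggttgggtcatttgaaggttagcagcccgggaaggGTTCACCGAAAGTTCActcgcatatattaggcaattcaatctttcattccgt
Cyp26a1: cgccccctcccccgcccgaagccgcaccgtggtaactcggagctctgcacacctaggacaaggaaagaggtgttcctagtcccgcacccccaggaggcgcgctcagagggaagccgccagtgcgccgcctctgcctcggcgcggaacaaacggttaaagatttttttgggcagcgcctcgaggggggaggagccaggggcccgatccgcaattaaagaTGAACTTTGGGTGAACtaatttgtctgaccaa

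The pair moved apart. Rarb, a retinoic acid receptor, fell in both layers: in mesoderm it went from 70.0 and 60.9 to 0.41 and 0.41 CPM, and in ectoderm from 13.7 and 14.7 to 1.51 and 0.87. The mesoderm was above the ectoderm at E9.5 and below it at E10.5. The difference was 3.71 (SE 0.70, adjusted p = 0.0065), and it was lost without mesoderm E10.5 replicate 1 or ectoderm E10.5 replicate 1 (adjusted p = 0.0597 in each case). Cyp26a1, which degrades retinoic acid, rose in ectoderm from 7.60 and 6.03 to 36.6 and 44.7 CPM and stayed under 1 CPM in all 4 mesoderm libraries. Its difference of 3.47 (SE 0.68, adjusted p = 0.00823) was lost without mesoderm E9.5 replicate 1 (adjusted p = 0.107).

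Cyp26b1, the other main retinoic acid hydroxylase of the limb, went the opposite way. It was at 441 and 364 CPM in ectoderm at E9.5 and at 428 and 342 at E10.5, and in mesoderm it went from 29.7 and 23.3 to 958 and 830.1. The ectoderm had the higher level at E9.5 and the mesoderm at E10.5, with no overlap of libraries at either stage. The mesoderm rose by 5.08 on the log2 scale, the ectoderm's change of -0.07 did not pass (adjusted p = 0.849), and the difference was -5.15 (SE 0.29, adjusted p = 2.24e-06). Per transcript length its mean went from 4.79 to 170 FPKM in mesoderm and read 73.4 and 70.1 FPKM in ectoderm. Rdh10, which makes the retinal precursor, and Stra6, a retinol carrier receptor, fell in mesoderm and did not pass in ectoderm, with differences of 2.82 (SE 0.50) and 2.38 (SE 0.39). Aldh1a2, the enzyme that makes retinoic acid, was at 35.4 and 24.8 CPM in mesoderm at E9.5 and 0.14 and 1.43 at E10.5, and it went from 5.28 and 4.04 CPM to 0 counts in ectoderm. It fell in both layers by the test and was not called, and no fold is given because ectoderm had no counts at E10.5. Rarg, the third retinoic acid receptor, had a difference of -0.997 (adjusted p = 0.023) that was lost in 5 of the 8 omissions of a library, with an adjusted p of up to 0.127.

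Several genes that act on WNT signalling rose in ectoderm or fell in mesoderm. Rspo2, an R-spondin that strengthens WNT signalling and is needed for ridge upkeep, was at 81.2 and 40.1 CPM in ectoderm at E9.5 and at 236 and 244 at E10.5. In mesoderm it went from 39.4 and 39.5 to 3.17 and 2.25 CPM. It rose in 1 layer and fell in the other, with a difference of 5.82 (SE 0.47, adjusted p = 2.55e-05). At E9.5 the layer difference of 0.60 did not pass (adjusted p = 0.121), and at E10.5 the ectoderm was higher by 6.42.

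The WNT list, of which Rspo2 was no member, had 6 called genes of 21, all positive, with a median of 0.50. It had 2 calls without the replicate block, 2 against a fold of 2 and 0 without E9.5 embryo batch 2. Lgr6, a receptor for R-spondins, rose from 13.2 and 15.5 to 87.5 and 68.1 CPM in ectoderm and was under 2 CPM in all 4 mesoderm libraries (difference 3.30, SE 0.57, adjusted p = 0.0038). Wif1, a secreted WNT inhibitor, rose in ectoderm from 5.49 and 2.59 to 31.8 and 26.6 CPM, and its mesoderm values of 19.8 and 17.4 and then 12.8 and 12.7 did not pass (difference 3.54, SE 0.68). Sfrp1, another secreted WNT antagonist, fell in both layers and further in mesoderm (difference 1.99, SE 0.36). Notum, which inactivates WNT proteins, Tcf7, a nuclear effector, and Lgr4 had smaller differences of 1.54, 1.08 and 1.06, and each was lost in 5 or 6 of the 8 omissions of a library, with adjusted p of up to 0.0992, 0.123 and 0.129. The list had 3 calls without mesoderm E9.5 replicate 2 or without ectoderm E9.5 replicate 1, ectoderm E9.5 replicate 2 or ectoderm E10.5 replicate 1. Axin2, a common readout of WNT activity, was not called.

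Fgfr2, an FGF receptor, fell in mesoderm only. It was at 60.1 and 87.0 CPM in mesoderm at E9.5 and at 7.35 and 7.71 at E10.5, whereas ectoderm read 263 and 302 and then 275 and 314. The difference was 3.33 (SE 0.41, adjusted p = 0.000472). The FGF list of 16 genes had 1 positive call, Fgfr2, and 4 negative ones, all feedback inhibitors, with a list median of -0.48. Spry2, a Sprouty, rose in mesoderm from 21.01 and 27.98 to 65.2 and 75.2 CPM, while ectoderm read 74.3 and 78.5 and then 80.9 and 81.7 (difference -1.43, SE 0.18, adjusted p = 0.00064). The call of Spry2 held when any 1 library was left out. Dusp6, Spry1 and Il17rd, which were called at -1.23, -1.37 and -1.11, also rose in mesoderm. Dusp6 and Spry1 were lost whichever of the 8 libraries was left out (adjusted p up to 0.145 and 0.164). Il17rd was lost in 4 omissions (up to 0.0727), and the list had 2 or 3 calls in every omission of 1 library. It had 2 calls without the replicate block, and 9 (2 positive and 7 negative) with only the 8 libraries.

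Calls among ridge signals depended on the fit. Fgf8, the main ridge FGF, rose in ectoderm from 358 and 194 to 1597 and 903 CPM, and it rose in mesoderm from 0.91 and 0.12 to 9.07 and 3.34 CPM. The difference of -1.33 (SE 0.94) did not pass (adjusted p = 0.476). Of 26 ridge and limb ectoderm signals, 2 had a positive call (Rspo2 and Bmp7) and 3 a negative one (Dlx5, Bmp2 and Trp63), and the list median was -1.19, with 15 members rising in ectoderm and 14 in mesoderm. A fit of only the 8 libraries of the contrast, or of all genes without a low-count filter, called 3 positive and 11 negative, whereas limma on FPKM called 8 positive and 1 negative. The list had 3 calls without mesoderm E9.5 replicate 1 or without ectoderm E9.5 replicate 1. Bmp7, at a difference of 0.72 (adjusted p = 0.0461), and Bmp2, at -2.00 (adjusted p = 0.0135), were lost in 6 and 4 omissions, with adjusted p of up to 0.211 and 0.116. The summed level of 24 surface epithelium markers in mesoderm was 115 and 123 CPM at E9.5 and 230 and 186 at E10.5, against 4060 and 3430 and then 6180 and 5100 CPM in ectoderm, with 0 to 2 markers at 0 in a mesoderm library. Tfap2a is 1 of the 24, and its own rise in mesoderm, given below, makes up much of the sum's gain there. The part of epithelial RNA in the mesoderm's gains of ectodermal genes was not tested. Epcam, an epithelial adhesion molecule, went from 1.39 and 1.54 to 6.62 and 4.30 CPM in mesoderm, and Trp63, the master factor of stratified epithelium, from 1.29 and 0.86 to 6.59 and 3.55. Trp63 read 545.7, 554.6, 531.5 and 530.2 CPM in ectoderm, and its difference was -2.31 (SE 0.40, adjusted p = 0.0038). The 24 markers had a median difference of -1.03, with 1 positive call (Krt18) and 2 negative ones (Trp63 and Tfap2a). The 8-library fit called 2 positive and 8 negative, the fit without a filter 2 and 10, and limma on FPKM 4 and 1.

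Some transcription factors of the ectoderm also came up in the mesoderm. Dlx5, a homeodomain factor of ridge and mesenchyme, went from 0.38 and 0.37 to 12.8 and 15.6 CPM in mesoderm, against 62.8 and 72.45 and then 91.7 and 89.7 in ectoderm. The surface epithelium markers in the same E10.5 mesoderm libraries had a median of 1.38% and 0.789% of their ectoderm level. The difference of Dlx5 was -4.79 (SE 0.37, adjusted p = 2.09e-05). Tfap2b, an AP-2 factor of limb mesenchyme and ectoderm, climbed from 0.33 and 0.12 to 120.4 and 251 CPM in mesoderm and from 19.3 and 31.4 to 69.5 and 105 in ectoderm, so that the mesoderm ended higher. Its difference was -7.70 (SE 0.67, adjusted p = 4.83e-05). Tfap2a, its relative, rose in mesoderm from 4.73 and 3.08 to 54.8 and 64.3 CPM, and ectoderm stayed higher at 143 and 149.6 (difference -3.54, SE 0.46).

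Jag1, a membrane ligand of Notch receptors, rose in both layers, from 8.98 and 9.41 to 141 and 210 CPM in mesoderm and from 32.0 and 39.3 to 71.9 and 120.1 in ectoderm. The ectoderm libraries were the higher pair at E9.5 and the mesoderm libraries at E10.5, and the difference was -2.81 (SE 0.33, adjusted p = 0.000384). Notch1, a receptor, went the other way: it rose in ectoderm from 66.2 and 54.9 to 253 and 305 CPM, and mesoderm read 52.8 and 39.3 and then 43.2 and 31.6. Its difference was 2.50 (SE 0.37, adjusted p = 0.00149). In the Notch list of 16, 25.0% were called, against 7.26% of all tested genes, and the list median was 0.18. The targets Heyl and Nrarp were also called positive, Heyl at 3.71 (SE 0.70) and Nrarp at 1.40 (SE 0.30). Heyl rose from 1.69 and 2.84 to 43.5 and 56.8 CPM in ectoderm and was below 1 CPM in the mesoderm libraries. It was lost without mesoderm E9.5 replicate 2 (adjusted p = 0.209), and Nrarp without mesoderm E9.5 replicate 1 (0.0727), mesoderm E10.5 replicate 2 (0.0528) or ectoderm E9.5 replicate 2 (0.0846). Hes1 and Hey1 were not called.

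Among mesenchyme genes, Sall1 and Pdgfra diverged in opposite ways. Of 22 limb mesenchyme genes 2 had a positive and 1 a negative call (13.6%, against 7.26% of all tested genes), with a median of -0.01. The 8-library fit called 2 positive and 6 negative. Sall1, a zinc finger factor of the autopod, rose in mesoderm from 31.3 and 56.0 to 440.3 and 361 CPM, while ectoderm read 158 and 192 and then 206 and 219.7 (difference -2.95, SE 0.42, adjusted p = 0.0013). Pdgfra, a growth factor receptor that marks mesenchyme in most tissues, rose in ectoderm from 91.2 and 56.7 to 441 and 491 CPM. Mesoderm held 198 and 237 CPM and then 217 and 213, so that the ectoderm was the lower layer at E9.5 and the higher at E10.5. The difference was 2.64 (SE 0.43, adjusted p = 0.00261). The ectoderm's summed mesenchyme markers were 1040 and 1010 CPM at E9.5 and 1370 and 1410 at E10.5. Pdgfra is itself in this sum, and its own rise makes up much of the sum's gain. The markers had a median of 24.2% and 18.1% and then 13.4% and 13.3% of their level in the mesoderm of the same batch. Prrx1 read 58.7 and 52.5 and then 63.1 and 47.0 CPM in ectoderm.

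The genes with the largest positive differences and at least 10 counts in each group were Gdnf, Tagln, Tnfaip2, Fgf15, Tmc3, Arg1, Rspo2, Fbln5, Irx3, Rhbdl3, Smoc2 and Nebl, between 6.88 and 5.16. Tagln, an actin-binding protein of contractile cells, rose from 3.38 and 3.80 to 38.1 and 31.8 CPM in ectoderm and fell from 14.6 and 8.12 to 1.28 and 0.89 in mesoderm. The layers changed places with no overlap at either stage (difference 6.59, SE 0.49, adjusted p = 1.6e-05). Tnfaip2, a gene induced by tumour necrosis factor in other cells, rose from 1.37 and 0.60 to 44.5 and 50.3 CPM in ectoderm, and mesoderm read 12.46 and 9.10 and then 6.52 and 6.68 (difference 6.43, SE 0.48). Nebl, another actin-binding protein, Gdnf, a ligand of the Ret receptor, Arg1, an arginase, Tmc3, a transmembrane channel-like protein, and Rhbdl3, a rhomboid-like protein, also rose in ectoderm and fell in mesoderm. Gdnf reached 7.18 and 9.745 CPM in ectoderm at E10.5 from 0.53 and 0.54. Fbln5, an elastic fibre protein, rose only in ectoderm, from 1.37 and 0.24 to 29.3 and 31.0 CPM. Smoc2, a matricellular protein, and Irx3 fell in mesoderm without a rise in ectoderm. Fgf15 differed widely between the ectoderm replicates at E10.5, at 59.5 and 7.94 CPM, and its call held only without mesoderm E9.5 replicate 1, mesoderm E10.5 replicate 2 or ectoderm E10.5 replicate 2, with an adjusted p of up to 0.114 in the 5 other omissions.

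The largest negative differences by the same rule were those of Pmaip1, Cyp26b1, Dlx5, Dgkk, Enpp1, Nlgn3, Serinc2, Naaa, Slc27a6, Peli3, Padi3 and Tfap2a, between -7.15 and -3.54. Pmaip1, which encodes the pro-apoptotic protein Noxa, went from 0.76 and 0.43 to 139 and 319 CPM in mesoderm, and ectoderm read 15.0 and 10.6 and then 21.3 and 42.0. All 12 rose in mesoderm, and Pmaip1 had the largest change there, 8.44 on the log2 scale. Dgkk, a diacylglycerol kinase, fell in ectoderm from 62.5 and 70.7 to 22.5 and 23.4 CPM and rose in mesoderm from 5.02 and 4.55 to 34.7 and 51.2 (difference -4.66, SE 0.33, adjusted p = 1.51e-05). Naaa, a lipid amide hydrolase, Slc27a6, a fatty acid transporter, and Peli3, a ubiquitin ligase, shared this crossing pattern, with differences of -4.19, -3.82 and -3.79. Enpp1, an ectonucleotidase, Nlgn3, a neuroligin, and Padi3, an arginine deiminase known from hair follicles, rose in mesoderm, and their changes in ectoderm did not pass. Serinc2 rose in both layers, by 1.158 in ectoderm and 5.43 in mesoderm. All 12, picked for their large differences, kept their calls when any 1 library was left out.

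More epidermal genes rose in ectoderm than in mesoderm. Of 20 tested epidermal and periderm genes 12 rose and 0 fell in ectoderm, 5 rose and 3 fell in mesoderm, 4 were called positive and 1 negative, and the median difference was 1.01. Evpl, envoplakin of the cornified envelope, rose from 7.17 and 3.80 to 55.0 and 45.5 CPM in ectoderm and stayed under 4 CPM in mesoderm (difference 3.07, SE 0.42, adjusted p = 0.00101). Dsp, desmoplakin, rose from 332 and 272 to 749 and 674 CPM in ectoderm and fell in mesoderm from 22.5 and 10.8 to 10.3 and 3.96 (difference 2.43, SE 0.39). Klf4, a barrier factor, and Dsc2, a desmosomal cadherin, were also positive, at 1.99 and 1.85, but were lost in 6 and 5 omissions (adjusted p up to 0.121 and 0.195). Tgm3, a transglutaminase, was the negative one: it was at 9.14 and 12.1 CPM in mesoderm at E10.5 and at 0 and 0.12 at E9.5, while ectoderm never exceeded 1.07. It too was lost in 5 omissions (up to 0.0977). The list had 2 calls without the replicate block, 9 with limma on FPKM, 2 without mesoderm E9.5 replicate 1 or mesoderm E10.5 replicate 1, and 3 without ectoderm E9.5 replicate 1, ectoderm E9.5 replicate 2, ectoderm E10.5 replicate 1 or ectoderm E10.5 replicate 2. Fras1, which links epidermis and dermis, rose in ectoderm and fell in mesoderm (difference 1.91, SE 0.30, adjusted p = 0.00208). It was the 1 call among 19 basement membrane genes (5.26%, against 7.26% of all tested genes). This count depended on the fit: it was 2 without mesoderm E9.5 replicate 1 or without ectoderm E9.5 replicate 2, 3 with DESeq2 or an embryo batch block, 4 with limma, and 7 (5 positive and 2 negative) with only the 8 libraries or without a low-count filter.

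Calls among cartilage and matrix genes depended on the fit. Of 18 tested, 5 were called negative and 1 positive (Postn), with a median of -0.60, and 0 were called without the block. There were also 0 calls against a fold of 2 and in 3 of the 4 omissions of an embryo batch, an alternative chosen after seeing the data. The 8-library fit called 3 positive and 7 negative. Col9a1, a cartilage collagen, rose in mesoderm from 13.8 and 10.3 to 56.8 and 37.7 CPM, with a difference of -2.31 (SE 0.44, adjusted p = 0.00669) that held in every omission of 1 library. Gdf5, a joint factor, was lost without mesoderm E9.5 replicate 1 (adjusted p = 0.134) or ectoderm E9.5 replicate 2 (0.24). Sox5, Col1a2, Col9a3 and Postn were lost in 6 to 8 omissions. The list had 1 call without mesoderm E9.5 replicate 1 and 2 or 3 calls without any other library. Col2a1, the main cartilage collagen, was not called, at 1530 and 989.8 CPM in ectoderm at E9.5 and 54.9 and 34.1 in mesoderm.

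Lin28a, an RNA-binding protein of early embryos, fell in both layers, from 369 and 460.5 to 42.6 and 40.2 CPM in ectoderm and from 368 and 457 to 11.04 and 9.004 in mesoderm, and the difference of 1.99 did not pass (adjusted p = 0.0635). In its list of 13, Dnmt3b, a DNA methyltransferase, and L1td1, an RNA-binding protein, were called negative, at -1.13 and -2.84. L1td1 was lost without ectoderm E9.5 replicate 2 (adjusted p = 0.0663). The list had 4 positive and 2 negative calls with the embryo batch block, and 3 of each with only the 8 libraries or without a filter. Among 26 cell division genes Cdkn1c, a cell cycle inhibitor, fell in ectoderm and rose in mesoderm (difference -1.55, SE 0.26), and Ccnb2, a cyclin, had a difference of -0.69 (SE 0.12). These 2 were the only calls of that list, a share of 7.69% against 7.26% of all tested genes. Of 20 glycolysis and hypoxia genes 13 fell in ectoderm and 16 in mesoderm, and 2 were called, Pdk1 at 1.203 (SE 0.19) and Vegfa at 1.12, the latter lost in 7 omissions (adjusted p up to 0.175). Hedgehog pathway genes gave 1 call of 13, the coreceptor Cdon (difference 1.26, SE 0.25, adjusted p = 0.00871), and 2 calls without mesoderm E9.5 replicate 1 or without ectoderm E10.5 replicate 2. In the main fit the Hedgehog list's share of calls was 7.69%, near the 7.26% of all tested genes. The share among glycolysis and hypoxia genes was little above it, so neither count sets its list apart. Shh was at 47.3 and 50.5 CPM in mesoderm at E10.5 and at 2.48 and 0.93 in ectoderm, from 1 count in ectoderm at E9.5.

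Other cell types and signs of tissue handling were examined by the same counts. Muscle precursor genes had 4 positive calls of 10 tested (median 1.96, or 1.85 with genes without counts at their floor). Of the 10 genes, 8 fell in mesoderm, where the summed level went from 164 and 129 to 31.5 and 43.2 CPM. The ectoderm sums were higher at both stages, at 239 and 283 CPM at E9.5 and 152 and 147 at E10.5. The part of muscle precursors in these values was not tested. Lbx1, a factor of migrating muscle precursors, fell in mesoderm from 30.9 and 12.7 to 0.10 and 0.34 CPM. Eya1, at 14.2 and 12.3 and then 0.38 and 0.75 CPM in mesoderm and 22.7 and 24.9 and then 18.5 and 17.1 in ectoderm, was the one of the 4 that held in every omission of 1 library (difference 4.24, SE 0.41). Pax3, Lbx1 and Met were lost in 4, 5 and 7 omissions, with adjusted p of up to 0.088, 0.0765 and 0.222, and Lbx1's difference of 4.43 became 2.84 without mesoderm E10.5 replicate 1. The difference of Met, 2.13, became 1.23 without mesoderm E9.5 replicate 1. The list had 1 call without mesoderm E10.5 replicate 1, ectoderm E10.5 replicate 1 or ectoderm E10.5 replicate 2, and 2 without mesoderm E9.5 replicate 1, ectoderm E9.5 replicate 1 or ectoderm E9.5 replicate 2. Without the replicate block it had 1 call. Of 17 macrophage genes 15 rose in mesoderm, from a sum of 10.7 and 6.58 to 50.8 and 70.8 CPM, against 2.43 and 3.02 and then 4.52 and 7.41 in ectoderm. None was called for the layer difference with edgeR (3 at an unadjusted p under 0.05, 1 with DESeq2, 2 with limma on FPKM).

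Blood moved with 1 ectoderm library. The summed erythroid genes read 102 and 771 CPM in ectoderm at E9.5 and 84.0 and 226 at E10.5, so replicate 2 was the richer in blood at both stages in this layer. In mesoderm the sums were 3990 and 2760 CPM at E9.5 and 5310 and 4340 at E10.5, with replicate 1 the richer. None of 14 erythroid genes was called with edgeR's quasi-likelihood test, with DESeq2 or with limma, 8 passed an unadjusted p under 0.05, and 8 were called when ectoderm E9.5 replicate 1 was left out. The same edgeR test called 11, all negative, without the low-count filter, 3 without E9.5 embryo batch 1, 2 with only the 8 libraries and 1 with an embryo batch block. Endothelial genes gave 0 calls of 18 (3 at an unadjusted p under 0.05, 0 with DESeq2, 1 with limma), and 2 without ectoderm E10.5 replicate 2. In the list of 20 dissociation and stress genes 4 were called positive and 1 negative (25.0%, against 7.26% of all tested genes), with a median of 0.20. There were 2 calls without the replicate block, and 3 without mesoderm E9.5 replicate 1, mesoderm E10.5 replicate 2, ectoderm E9.5 replicate 1, ectoderm E9.5 replicate 2 or ectoderm E10.5 replicate 1. Jun, an immediate early factor, rose in ectoderm from 17.7 and 11.9 to 46.3 and 44.3 CPM, and mesoderm read 19.6 and 16.4 and then 16.5 and 13.5 (difference 1.91, SE 0.20, adjusted p = 0.000151). Gadd45b, a stress response gene, rose in ectoderm from 0.53 and 0.42 to 5.59 and 8.54 CPM (difference 3.10, SE 0.45). Both calls held when any 1 library was left out. Egr1, of the same kind, was not called. The part of tissue handling in these values was not tested.

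**Figure D4:**
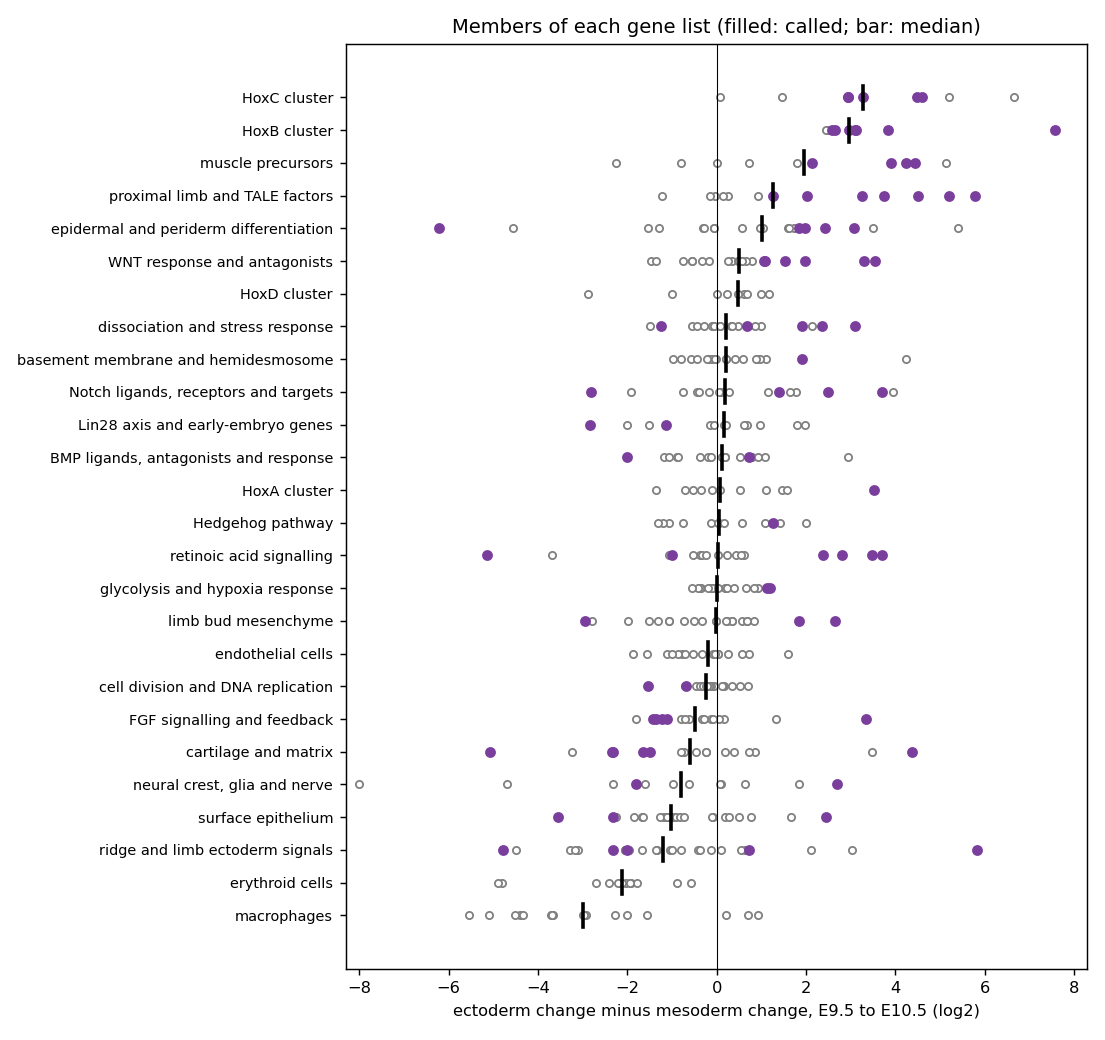
Difference between the ectoderm's and the mesoderm's first-day log2 change for the tested members of 26 gene lists, ordered by their medians (black bars). Filled points were called, open points were not, and values beyond 8 in size are drawn at 8. HoxC, HoxB, muscle precursors and proximal limb factors have medians of 3.27, 2.97, 1.96 and 1.27, and macrophage and erythroid genes have medians of -2.98 and -2.12 without a called member.

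The higher layer changed between E9.5 and E10.5 in 145 of the 1126 called genes (0.935% of all tested genes), counting only layer differences that passed at both stages. At E10.5, 46.5% of all tested genes differed between the layers, and 25.0% were higher in ectoderm. In 79 the mesoderm was the higher layer at E9.5 and the ectoderm at E10.5, and in 66 the reverse held. In the positive set, 241 genes whose layer difference did not pass at E9.5 were higher in ectoderm at E10.5, and 170 were higher in ectoderm at both stages. In the negative set, 153 that were higher in ectoderm at E9.5 had no passing layer difference at E10.5, 144 with none at E9.5 were higher in mesoderm at E10.5, and 127 were higher in ectoderm at both.

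The E11.5 and E12.5 libraries, which the contrast does not use, showed whether the layer order of E10.5 lasted. Meis1 was higher in ectoderm by 4.62 on the log2 scale at E10.5, by 5.48 at E11.5 and by 6.95 at E12.5. Meis2 was higher by 4.35, 6.13 and 7.69, and Pbx3 by 0.75, 1.76 and 1.18. Cyp26b1 was lower in ectoderm at all 3 stages, by -1.22, -1.42 and -3.88. The layer order thus stayed the same for these 4 genes at each later stage, and all of these values passed the test. Jag1 did not keep its order: at E12.5 it read 25.45 and 59.1 CPM in mesoderm and 78.3 and 103 in ectoderm, a layer difference of 1.19 that passed the test. Ptn, a heparin-binding growth factor, rose in ectoderm from 198 and 229.9 to 430.4 and 588 CPM and fell in mesoderm from 298 and 309 to 91.8 and 126 in the first day (difference 2.74, SE 0.20, adjusted p = 1.51e-05). Its libraries then drew together, at 259 and 282 CPM in ectoderm and 179 and 213 in mesoderm at E12.5.

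**Figure D5:**
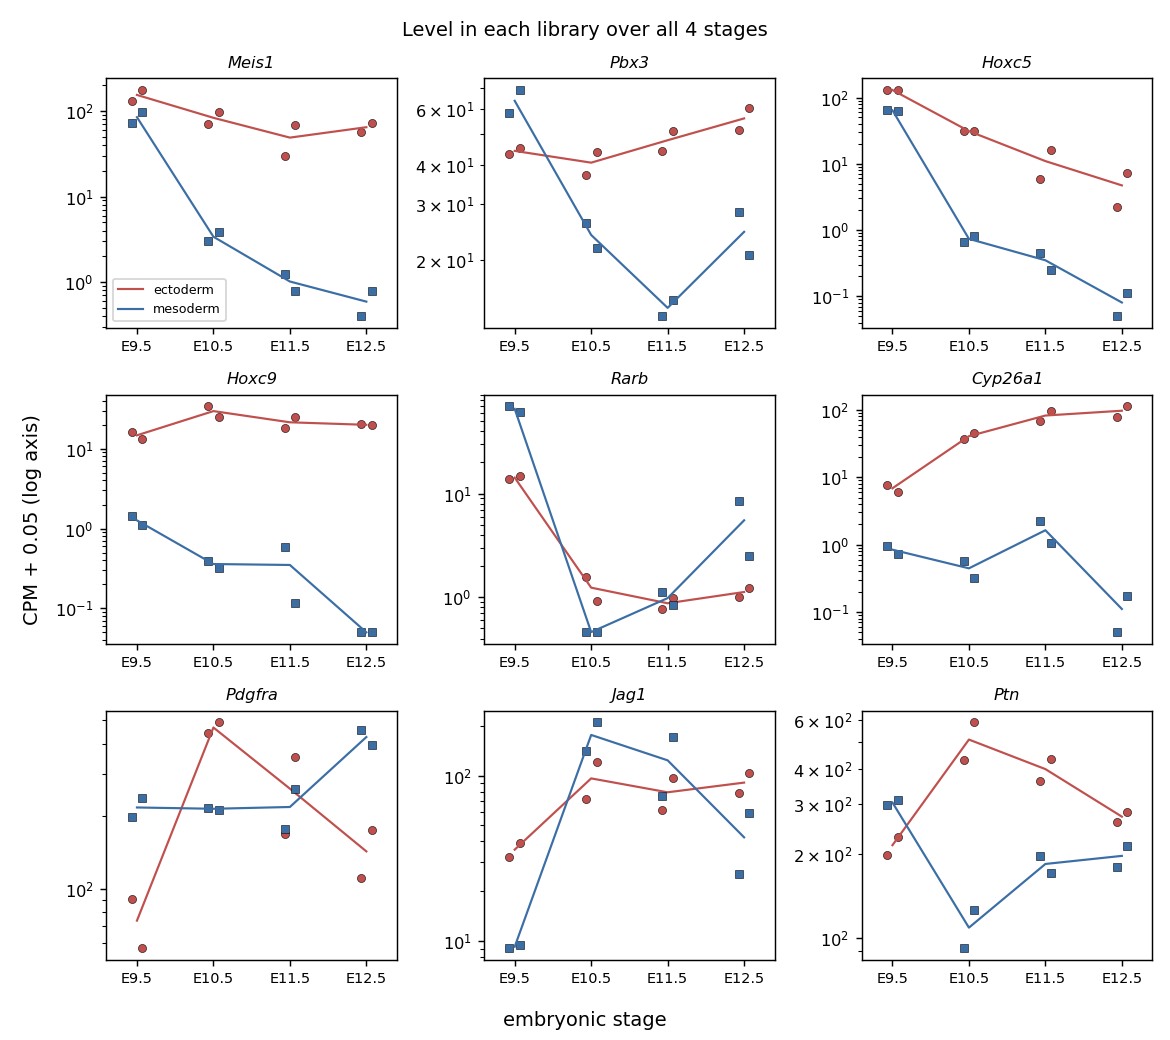
Level of 9 genes in all 16 libraries over the 4 stages, as CPM + 0.05 on a log axis, with ectoderm in red circles, mesoderm in blue squares and lines through the group means. Meis1, Hoxc5, Hoxc9 and Cyp26a1 stay higher in ectoderm from E10.5 on, while Ptn, Pdgfra and Jag1 draw together or cross again at later stages.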

How the data were processed

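Polyadenylated RNA of 16 libraries was sequenced with a stranded kit, per the labels' protocols. Per the submitters' processing notes the authors used STAR 2.6.0c, Cufflinks 2.2.1, bedtools 2.27.1 and cutadapt 1.16 and the build mm10. Counts for 53800 genes were deposited as whole numbers, and the authors also deposited FPKM values per gene. The tool that made the counts and its strand setting are not given in the sources used here. Deposited exon-bin counts were not used here. Positions come from GENCODE M21, which holds 53740 of the 53800 gene identifiers.

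Counts were fitted with edgeR 4.0.16 in R 4.3.3 (TMM scaling, filterByExpr, quasi-likelihood F test) with 1 mean for each of 8 groups and the replicate number as a block, over all 16 libraries with 7 residual degrees of freedom. Of 28342 genes with any count 15501 were tested. Calls required an adjusted p (Benjamini-Hochberg, every tested gene included) under 0.05. SE is the log2 difference divided by the square root of F. CPM values use effective library sizes. The number of replicates limits the precision, with 2 embryo batches per stage. The p-values rest on the spread left after the replicate block, pooled over all 8 groups. Both layers of an embryo batch entered this fit as separate libraries. Total counts of the 8 libraries of the contrast ran from 10005867 to 30438214, and a floor of 3 counts over a group is 0.0687 to 0.115 CPM in them, for counting error only. The code was tested on simulated data.

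Replicate numbers go with the RNA kit and, within a stage, with the embryo batch, per the labels. Across genes, the replicate difference correlated at 0.463 to 0.602 between the layers of a stage and at 0.364 to 0.602 over all 28 pairs of groups.

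The members and the 26 gene lists were chosen with earlier results of these data known. Named genes were the 12 largest called differences in each direction with at least 10 counts in each group, up to 4 called members per list by adjusted p, all Hox genes and a set of markers. Pbx3, Irx5, Cyp26a1, Rarg, Spry1, Dsc2, Hspa1a, Tcf7, Lgr4, Col9a3, Postn, Tfap2b, Ptn, Efnb1, Efnb2, Epha4, Sema3a, Tgfb2 and Itga2 were named after their values were seen. Some genes are not reported here. Alternatives were other scalings, filters and blocks, DESeq2 1.42.0, limma 3.58.1 on log2(FPKM + 1), a test against a fold of 2, and leaving out single libraries. Leaving out whole embryo batches was added after seeing the data.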

Additional observations from a re-analysis of the deposited data

Results flagged for a closer look

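In 22 named genes the change from E9.5 to E10.5 passed edgeR's quasi-likelihood test in both layers with opposite signs, and the difference between the layers passed as well. Among all 1126 called genes, 136 had such opposite changes. The rise was in ectoderm and the fall in mesoderm for 14 of the 22 named genes. Their log2 differences were 6.88 for Gdnf, 6.59 for Tagln, 6.24 for Tmc3, 6.19 for Arg1, 5.82 for Rspo2, 5.17 for Rhbdl3 and 5.16 for Nebl. They were 4.25 for Itga2, an integrin of collagen binding, 3.67 for Tgfb2, a TGF-beta ligand, and 2.18 for Efnb2, an ephrin. The others in this direction were Hoxc9 at 2.94, Ptn at 2.74, Dsp at 2.43 and Fras1 at 1.91.

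The fall was in ectoderm and the rise in mesoderm for 8 genes. Their log2 differences were -4.66 for Dgkk, -4.19 for Naaa, -3.82 for Slc27a6, -3.79 for Peli3, -2.84 for L1td1, -1.55 for Cdkn1c, -1.24 for Hmox1, a heme oxygenase, and -1.13 for Dnmt3b. Many of the named genes were chosen for large differences or small adjusted p, which favours calls that hold. Over all 1126 calls, each omission of 1 library kept between 47.6% and 67.9%. Of the 22 calls, 19 held when any 1 library was left out. The exceptions were Hoxc9 (adjusted p = 0.0661 without mesoderm E9.5 replicate 1 and 0.0752 without mesoderm E10.5 replicate 1), L1td1 (0.0663 without ectoderm E9.5 replicate 2) and Hmox1 (0.0505 without ectoderm E9.5 replicate 2). The groups have 2 libraries each, so no single library was tested as an outlier within its group.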

How the results depend on the processing

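Of 1126 calls, 352 remained without the replicate block, all with the same sign, and 70 of 108 named called genes kept their call there. A test against a fold of 2 called 248. Omitting 1 library gave between 548 and 901 calls, and 536 to 764 of the original ones were kept. Omitting both layers of an embryo batch, an alternative chosen after seeing the data, gave 437 without E9.5 batch 1, 366 without E9.5 batch 2, 402 without E10.5 batch 1 and 494 without E10.5 batch 2. In the omissions, fewer libraries entered the fit. The count stayed within 1.5 times the main one with an embryo batch block (1280), with only the 8 libraries (1681), with RLE scaling (1124), with library totals alone (1183), without a low-count filter (1615), with at least 1 CPM in 4 libraries (1153), with DESeq2 (1523) and with limma on FPKM (1430, of which 831 were original calls). The positive share of calls was 53.9%. It was 64.2% without the block, 71.0% against a fold of 2, 48.0% with only the 8 libraries, 46.1% with library totals alone (where the median of all genes was -0.04), 46.0% with limma and 45.1% without a filter. No named called gene changed sign under any of these settings. Depth limits genes with few counts in a group, such as Hoxb1, Tgm3 and the 5' Hoxc genes.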

Other observations

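The genes Efnb1, Efnb2, Epha4, Sema3a and Tgfb2 were among those whose higher layer changed between E9.5 and E10.5. They were chosen after their values were seen, and other members of their families were not tallied. Efnb2, an ephrin ligand, went from 174 and 221 to 61.3 and 73.0 CPM in mesoderm and from 87.6 and 95.4 to 143 and 139 in ectoderm. Efnb1, a related ligand, rose in both layers and further in mesoderm, from 52.0 and 39.4 to 209 and 164 CPM in mesoderm and from 76.7 and 65.8 to 141 and 93.8 in ectoderm, a difference of -1.34 (SE 0.16, adjusted p = 0.000397 with edgeR). Epha4, a receptor of both ligand classes, rose from 43.7 and 45.8 to 426 and 446 CPM in mesoderm and from 89.2 and 77.1 to 118 and 167 in ectoderm, a difference of -2.53 (SE 0.28). In each of the 3, the libraries of the layers did not overlap at either stage.

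Sema3a, a repulsive guidance cue for axons, fell in mesoderm from 217 and 326 to 20.9 and 17.7 CPM, and ectoderm read 115 and 144 and then 87.0 and 98.4, a difference of 3.30 (SE 0.27, adjusted p = 2.55e-05). Tgfb2 rose in ectoderm from 38.4 and 28.7 to 73.8 and 84.1 CPM and fell in mesoderm from 72.0 and 75.0 to 15.3 and 11.9. The layer order of Efnb1, Efnb2 and Sema3a at E10.5 was the same at E11.5 and E12.5, where each difference passed the test. For Epha4 and Tgfb2 it passed at E11.5 and did not at E12.5 (adjusted p = 0.305 and 0.262). All 5 first-day calls held when any 1 library was left out.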
